A study of Homo sapiens with 9 samples.

Results

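The 43 genes described here encode the core machinery that copies DNA, from the origin recognition complex to the enzymes that supply deoxynucleotides, and they were followed in VCaP cells after silencing of CDO1, the cysteine dioxygenase that opens taurine synthesis. They were chosen by name from the roles of their products, with earlier results of these data known, and each has 1 row among the 58735 genes of the count table. VCaP is an established prostate cancer line, grown here with dihydrotestosterone. The cells received a control siRNA (siCtrl, labelled WT) or 1 of 2 siRNAs against CDO1 (siCDO1A or siCDO1C, labelled CDO1 knockdown), and poly(A) RNA was sequenced from 3 libraries per condition, 9 in all. The labels name the libraries biological replicates of 1 cell line and give each a batch number equal to its replicate number. All 9 libraries shared the same line and medium, and no untransfected library was analysed here.

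Replication starts where the origin recognition complex (ORC) marks the DNA. The MCM helicase is loaded there and, with CDC45 and the GINS complex, opens the fork. DNA polymerase alpha and its primase lay down short primers, polymerase epsilon extends the leading strand, and polymerase delta extends the lagging strand while held by the PCNA ring, which the RFC clamp loader places on DNA. Replication protein A covers the exposed single strands, FEN1, DNA2, RNase H2 and LIG1 turn Okazaki fragments into a continuous strand, and CAF-1 puts histones on the new DNA. Ribonucleotide reductase, thymidylate synthase and thymidine kinase supply the building blocks. Many of these genes are known E2F targets with higher mRNA in S phase, so in bulk RNA a change in the RNA per cell and a change in the share of cells in S phase cannot be told apart.

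CDO1 was checked first. It had 14.2, 14.1 and 13.7 CPM (counts scaled to a common library size of 1e6) in siCtrl libraries, 3.28, 2.05 and 2.18 with siCDO1A, and 1.10, 2.81 and 1.16 with siCDO1C. The mean was 82.1% and 87.9% lower, with no overlap with siCtrl in either case (p = 0.1 in each case by an exact, two-sided permutation of the libraries, the smallest that 3 against 3 allow). Total counts ranged from 12061295 to 16073698 per library, so that 3 counts, taken as the detection limit, equal 0.1866 to 0.2487 CPM. Of the VCaP identity genes, KLK2 lay between 2880 and 3970 CPM. KLK2 was higher with siCDO1A (log2 0.34, edgeR adjusted p = 5.6e-05) and did not pass with siCDO1C (log2 0.09, adjusted p = 0.536). The other identity genes checked are not reported here, and the list did not move in 1 direction. Among 13 markers of other cells, PTPRC, CD3E, COL1A2, KRT5, TP63, DCN and PECAM1 had 0 to 6 counts in every library. The summed level of the 11 markers that are not neuroendocrine was 6.77 to 8.07 CPM in siCtrl, 10.6 to 13.4 with siCDO1A and 8.02 to 9.65 with siCDO1C, and COL1A1, KRT14 and CHGA were higher with siCDO1A (adjusted p = 0.0353, 0.0101 and 0.0166, and 0.063, 0.0207 and 0.0644 with the batch number as a block). The part of these shifts in the results below was not tested.

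Most of the replication genes stood somewhat higher when CDO1 was silenced, 38 of 43 with siCDO1A and 34 of 43 with siCDO1C, but the majority did not pass the test. The share of all genes that stood higher was not counted, and their median fold change is given below. With siCDO1A, 15 of the 43 genes rose, RFC1 fell and 27 did not pass, at an adjusted p-value of at most 0.05 (edgeR quasi-likelihood test, Benjamini-Hochberg adjustment over 15555 genes). Over all genes tested, 7.37% rose and 7.48% fell with siCDO1A. With siCDO1C, 7 rose, none fell and 36 did not pass, where 2.27% of all genes rose and 2.5% fell. At an unadjusted p under 0.05, 18 were higher and 1 lower with siCDO1C. DESeq2 called 10 higher and 1 lower with siCDO1A, where ORC1, POLE2, RFC4, RPA2 and TYMS no longer passed, and 7 higher and 0 lower with siCDO1C, where PCNA passed and POLE2 did not. No share of all genes was counted at the unadjusted threshold or by DESeq2, here or for the single roles below. The shares of 7.37% and 2.27% belong to the adjusted edgeR test and are not their background. CHAF1A, CHAF1B, FEN1, POLD1, POLD3 and POLE2 rose with each siRNA, which 1.9% of all genes did. For siCDO1A and siCDO1C in turn, the median log2 fold change of the 43 genes was 0.18 and 0.19, against 0.01 and -0.00 over all genes. Both comparisons share the siCtrl libraries, so their results are not independent.

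The counts depended on whether the batch number entered the fit and on single libraries. The median log2 fold change of the 43 genes with siCDO1A was 0.181 with and without it. A block also leaves less information on the spread between so few libraries, and what lowered the counts was not tested. With the batch number as a block in the fit, 6 genes rose with siCDO1A (ORC6, POLD1, POLD3, PCNA, FEN1 and CHAF1B, where 4.19% of all genes rose), 4 rose with siCDO1C (POLD1, POLD3, DNA2 and CHAF1A, against 1.92%), and POLD1 and POLD3 rose with both. Within batches, 23 of the 43 genes were higher than siCtrl in all 3 batches with siCDO1A and 24 with siCDO1C. The share of all genes that did so was not counted, so these numbers have no background to be read against. With siCDO1A, 20 genes had their lowest siRNA library above the highest siCtrl library, where 15.2% of all genes did so, and with siCDO1C 21 had, against 12.1%.

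**Figure D1:**
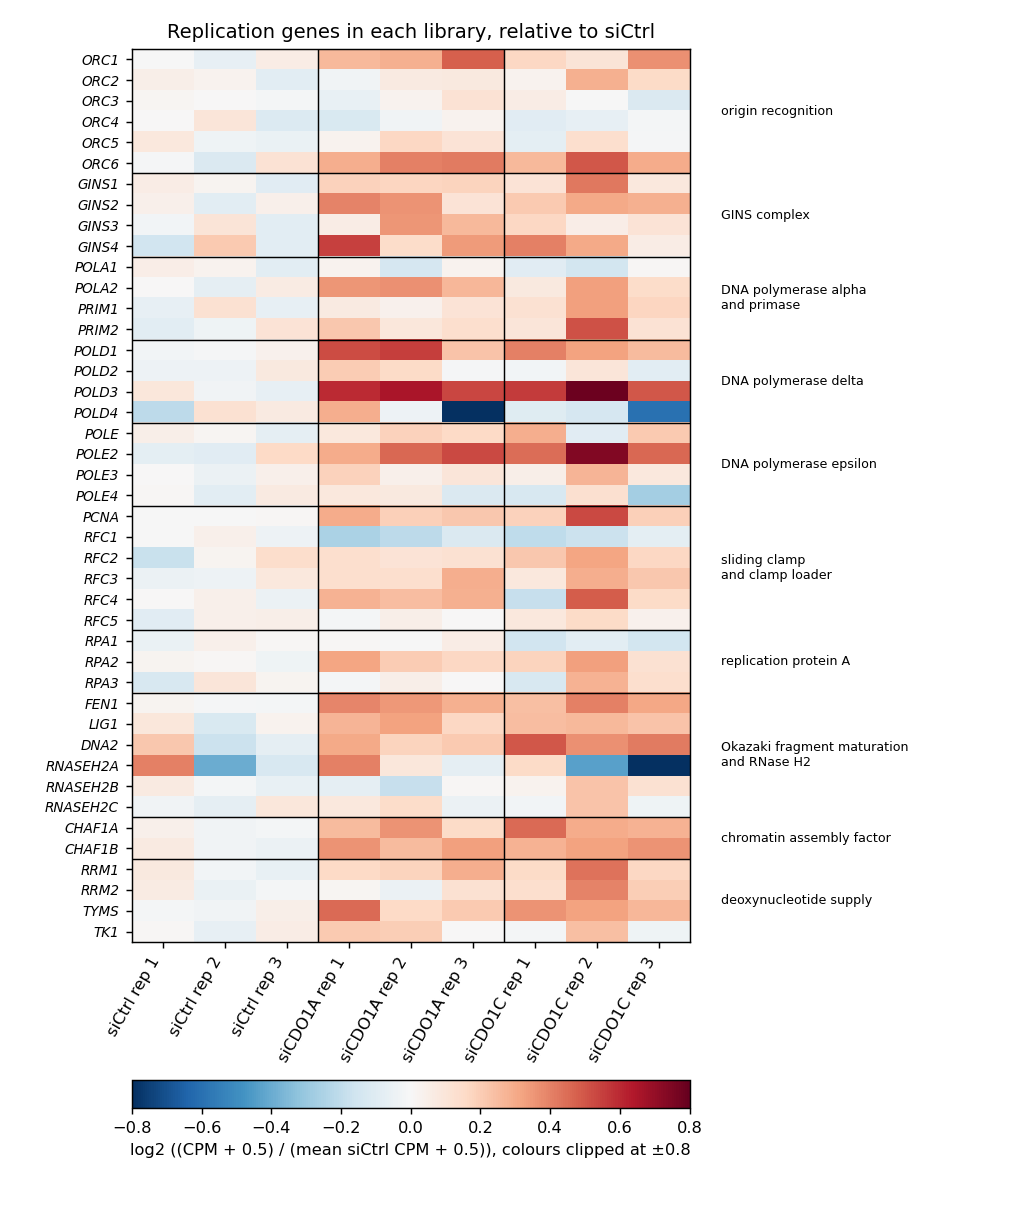
Log2 ratio of each gene (rows, grouped by role) in each of the 9 libraries (columns) to its siCtrl mean, with a pseudocount of 0.5 CPM. POLD3 and POLE2 are red in all 6 siRNA libraries, RFC1 is blue in all 6, and siCDO1C replicate 2 is the reddest column.

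One library stood above the others. Replicate 2 of siCDO1C held the highest value of the 9 libraries for 22 of the 43 genes (51.2%), and for 18.2% of all genes tested. The median log2 ratio of the 43 genes to their siCtrl means was 0.291 in this library, 0.120 and 0.145 in siCDO1C replicates 1 and 3, and 0.137 to 0.203 in the siCDO1A libraries. It also held the most CDO1 of the siCDO1C libraries. Without it, 10 of the 43 genes were called with siCDO1C. The share of all genes called without this library was not counted, so the 10 has no background to be read against. The 43 genes together took 0.277% to 0.283% of the counts of a siCtrl library, 0.3% to 0.313% with siCDO1A and 0.297% to 0.326% with siCDO1C, and the groups given siRNAs against CDO1 did not overlap with siCtrl.

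**Figure D2:**
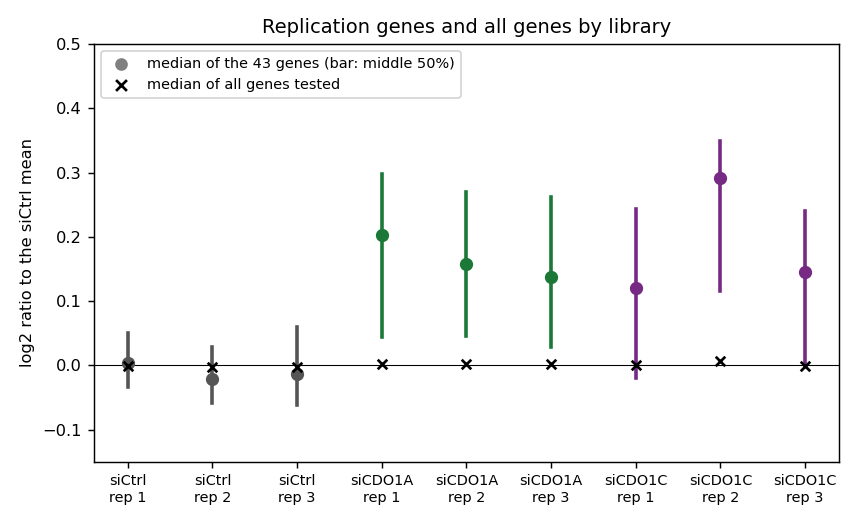
Median (dot) and middle 50% (bar) of the log2 ratio to the siCtrl mean over the 43 genes in each library, with the median of all 15555 genes tested as a cross. The 6 siRNA libraries have medians of 0.120 to 0.291, while the crosses lie between -0.003 and 0.006.

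The start sites of these genes were read from RefSeq promoter sequences (GRCh38.p14), which cover 250 bases before and 50 after each start, 300 in all, and matched 38 of the 43 genes through 48 promoters. DNA2, GINS4, POLD3, RPA2 and RPA3 had no entry. The E2F motif was searched on both strands as TTTCGCGC, TTTGGCGC, TTTCCCGC or TTTGCCGC. It was present for 13 of the 38 genes (34.2%), for 6.47% of 10811 genes tested that had a promoter, and in 3.3% of all 35116 promoters of the table. Among genes called with 1 or both siRNAs it was present in 5 of 14 (35.7%), and among those called with neither in 8 of 24 (33.3%). CCAAT, the letters bound by NF-Y, was found for 22 of 38 genes (57.9%) and for 42.8% of the genes tested. It was found in 6 of 14 genes called with 1 or both siRNAs (42.9%) and in 16 of 24 called with neither (66.7%). The motifs were counted separately, and their matches may overlap. A match is a description of letters and not a site shown to be bound.

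The promoters of 4 genes that rose with siCDO1A are given 5′ to 3′ on the strand of the gene, with the E2F letters in capitals, to show a match on each strand and a promoter without one. POLE2 (chr14:49688165-49688464, minus strand) carries TTTGGCGC on the opposite strand, read here as GCGCCAAA and beginning 5 bases before the start. POLA2 (chr11:65261712-65262011, plus strand) carries TTTCGCGC, beginning 53 bases before the start. PCNA (chr20:5126573-5126872, minus strand, 1 of 2 promoters listed) carries TTTCCCGC on the opposite strand, read as GCGGGAAA and beginning 59 bases before the start. CHAF1B (chr21:36385142-36385441, plus strand) holds none of these letters in this window, although it rose with both siRNAs.
POLE2: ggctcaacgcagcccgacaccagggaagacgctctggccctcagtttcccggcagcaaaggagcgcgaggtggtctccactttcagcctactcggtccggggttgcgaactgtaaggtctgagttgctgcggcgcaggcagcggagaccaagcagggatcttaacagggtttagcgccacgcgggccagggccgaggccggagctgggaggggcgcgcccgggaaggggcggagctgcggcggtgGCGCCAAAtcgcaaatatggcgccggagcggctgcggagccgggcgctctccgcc
POLA2: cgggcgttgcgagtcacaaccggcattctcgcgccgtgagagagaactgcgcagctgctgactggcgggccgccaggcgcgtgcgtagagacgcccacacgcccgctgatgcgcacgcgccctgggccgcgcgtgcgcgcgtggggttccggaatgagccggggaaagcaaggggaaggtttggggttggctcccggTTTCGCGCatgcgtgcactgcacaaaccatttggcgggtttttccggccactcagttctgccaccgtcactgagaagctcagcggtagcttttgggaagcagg
PCNA: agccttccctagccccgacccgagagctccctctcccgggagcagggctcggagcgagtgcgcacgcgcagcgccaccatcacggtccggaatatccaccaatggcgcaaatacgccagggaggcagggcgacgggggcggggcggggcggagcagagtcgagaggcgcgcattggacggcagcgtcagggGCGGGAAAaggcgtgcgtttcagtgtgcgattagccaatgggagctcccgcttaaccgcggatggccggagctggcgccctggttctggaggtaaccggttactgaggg
CHAF1B: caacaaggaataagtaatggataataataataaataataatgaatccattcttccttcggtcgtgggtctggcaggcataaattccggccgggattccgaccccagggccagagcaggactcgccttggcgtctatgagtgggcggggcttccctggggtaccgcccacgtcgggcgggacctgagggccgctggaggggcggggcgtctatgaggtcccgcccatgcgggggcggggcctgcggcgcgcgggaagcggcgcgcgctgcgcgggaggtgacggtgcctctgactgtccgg

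In the origin recognition complex, which marks origins, 2 of 6 genes rose with siCDO1A and none passed with siCDO1C (1 at an unadjusted p under 0.05, none by DESeq2). ORC1, the subunit that is degraded as cells leave G1, had 14.5, 13.9 and 15.2 CPM in siCtrl, 17.5, 17.8 and 20.4 with siCDO1A and 16.3, 15.6 and 18.8 with siCDO1C. All siRNA libraries lay above siCtrl. ORC1 rose by 0.35 ± 0.106 on the log2 scale with siCDO1A (SE, n = 3 per group, adjusted p = 0.0275, and 0.0623 with the batch block) and its difference with siCDO1C was 0.21 (adjusted p = 0.366). ORC6, the small and loosely held subunit, had 25.3, 23.6 and 27.7 CPM in siCtrl, 31.3, 33.9 and 34.2 with siCDO1A and 30.6, 36.3 and 31.4 with siCDO1C, again with no overlap. ORC6 rose by 0.38 ± 0.0887 (adjusted p = 0.0065) under siCDO1A, and its difference under siCDO1C was 0.35 ± 0.101 (adjusted p = 0.0617). ORC2 to ORC5, the inner subunits, had log2 fold changes of -0.04 to 0.11 with siCDO1A and -0.06 to 0.15 with siCDO1C, and none passed or separated from siCtrl.

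None of the 4 GINS genes passed in either comparison, although every one had a positive fold change in both (at an unadjusted p under 0.05, 3 with siCDO1A and 2 with siCDO1C, and none by DESeq2). GINS1 was the most abundant per gene length, with 17.5 CPM per kilobase over the 9 libraries. It had 67.8, 66.1 and 61.1 CPM in siCtrl, 74.0, 73.2 and 73.5 with siCDO1A and 70.2, 87.3 and 68.8 with siCDO1C. The siRNA libraries lay above siCtrl, by 0.18 (adjusted p = 0.0766) and 0.21 (adjusted p = 0.253) on the log2 scale. Across the complex, log2 fold changes ran from 0.18 to 0.38 with siCDO1A and from 0.11 to 0.29 with siCDO1C.

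Of polymerase alpha and primase, only POLA2 passed, and with siCDO1A only. POLA2, the regulatory B subunit, had 23.9, 22.7 and 25.1 CPM in siCtrl, 30.7, 30.9 and 28.8 with siCDO1A and 25.2, 30.1 and 26.5 with siCDO1C. The siCDO1A libraries were well above siCtrl, and the lowest siCDO1C library lay just above the highest siCtrl library. POLA2 rose by 0.33 ± 0.0869 on the log2 scale with siCDO1A (adjusted p = 0.013, and 0.0501 with the block). The siCDO1C difference was 0.18 ± 0.101 (adjusted p = 0.368), and the direct difference between the siRNAs was -0.15 (95% interval -0.37 to 0.07, adjusted p = 0.862). POLA1, the catalytic subunit, and PRIM1 and PRIM2, the primase subunits, had log2 fold changes of -0.02 to 0.15 with siCDO1A and -0.08 to 0.25 with siCDO1C. On the same strand, AP000944.2 spans 99.6% of POLA2, with 2 to 6 counts per library, and AC117378.1 spans 47.8% of PRIM1, with 0 to 2.

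Polymerase delta held the clearest changes. POLD3, the accessory subunit that also binds PCNA, had 18.0, 16.6 and 16.1 CPM in siCtrl, 25.8, 26.8 and 24.7 with siCDO1A and 25.1, 29.4 and 24.1 with siCDO1C. Every siRNA library exceeded every siCtrl library by a wide margin. POLD3 rose 1.53-fold with siCDO1A (log2 0.61 ± 0.0945, adjusted p = 0.00014) and 1.55-fold with siCDO1C (log2 0.63 ± 0.109, adjusted p = 0.00363), the highest fold changes among the 43 genes. It was called in each of the 6 fits that left out 1 library, for both siRNAs. POLD1, the catalytic subunit, had 75.9, 76.6 and 78.8 CPM in siCtrl, 111, 114 and 90.4 with siCDO1A and 102, 96.6 and 92.1 with siCDO1C. The siCtrl libraries lay close together and below all the others, and siCDO1A replicate 3 was the lowest siRNA library. POLD1 rose 1.36-fold (log2 0.44 ± 0.0759, adjusted p = 0.00043) and 1.25-fold (log2 0.32 ± 0.0747, adjusted p = 0.0216), the second holding in 2 of 6 fits that left out a library.

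The other polymerase delta genes did not pass. POLD2, which links the catalytic and accessory subunits, was the second most abundant of the 43 genes per length (126 CPM per kilobase), and its log2 fold changes were 0.12 with siCDO1A and -0.01 with siCDO1C. POLD4, the smallest subunit, had 50 to 110 counts and log2 fold changes of -0.15 and -0.28, and all of it lies within the span of RAD9A on the opposite strand, which had 0.09 and -0.02. AP003419.1 covers 87.2% of POLD4 on the same strand and had 0 counts in every library.

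In polymerase epsilon, POLE2 rose with both siRNAs. POLE2, the second subunit, had 5.45, 5.41 and 6.52 CPM in siCtrl, 7.22, 8.14 and 8.59 with siCDO1A and 8.09, 10.0 and 8.17 with siCDO1C. There was no overlap, although only 68 to 132 counts per library stand behind these values. The log2 fold change was 0.46 ± 0.152 (adjusted p = 0.0463) and 0.58 ± 0.158 (adjusted p = 0.0482). Both calls lie at the threshold: with the batch block the adjusted p was 0.0813 and 0.055, and of the fits that left out 1 library 1 of 6 kept the first call and none kept the second. DESeq2 called POLE2 with neither siRNA. POLE, the catalytic subunit, and the histone-fold subunits POLE3 and POLE4 did not pass, with log2 fold changes of 0.01 to 0.15 with siCDO1A and -0.09 to 0.14 with siCDO1C.

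**Figure D3:**
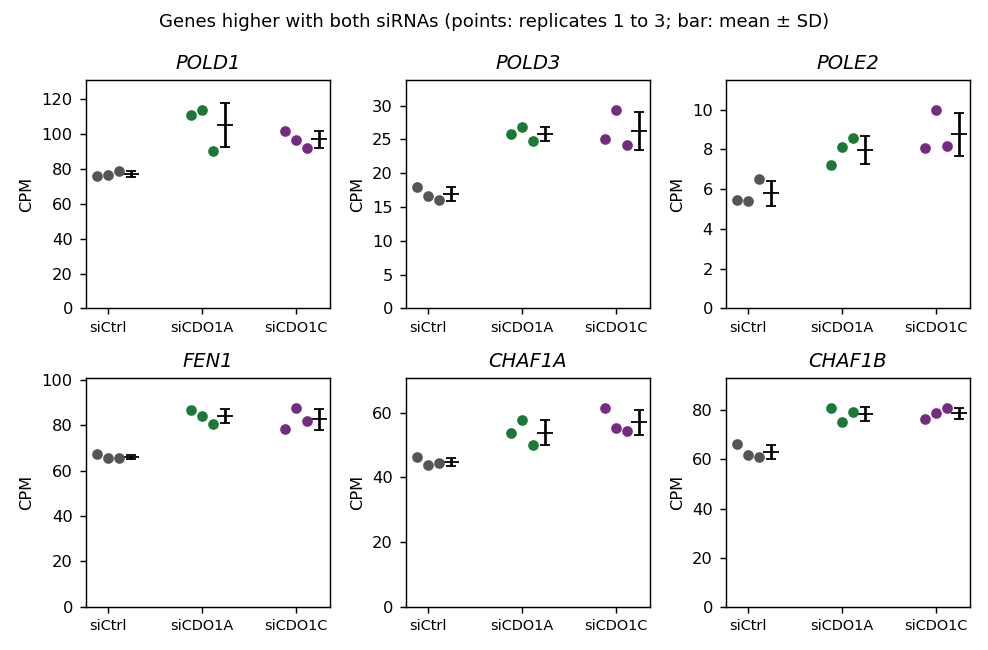
CPM of the 6 genes that rose with both siRNAs, with a point per library, the 3 conditions on the horizontal axis and the mean ± SD beside each group. In each panel all 6 siRNA libraries lie above the 3 siCtrl libraries, and the vertical axes start at 0.

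Among the clamp and its loader, PCNA and RFC4 rose and RFC1 fell with siCDO1A, and none passed with siCDO1C, where DESeq2 called 1, PCNA. PCNA, the sliding clamp and the most abundant of the 43 genes per length (162 CPM per kilobase), had 208, 208 and 210 CPM in siCtrl, 256, 239 and 243 with siCDO1A and 238, 301 and 238 with siCDO1C. All siRNA libraries were higher than siCtrl, and siCDO1C replicate 2 stood apart from the other siCDO1C libraries. PCNA rose by 0.23 ± 0.0526 on the log2 scale with siCDO1A (adjusted p = 0.00437). Its siCDO1C difference was 0.30 ± 0.0874 (adjusted p = 0.0607, and between 0.0119 and 0.226 when 1 library was left out). RFC1, the large subunit of the loader, was the single gene of the 43 to fall. It had 101, 104 and 98.1 CPM in siCtrl, 84.6, 87.2 and 93.1 with siCDO1A and 87.4, 89.5 and 95.4 with siCDO1C. All 6 siRNA libraries lay below siCtrl. RFC1 fell by 0.19 on the log2 scale with siCDO1A (SE 0.0626, adjusted p = 0.0438, and 0.154 with the block), and the difference with siCDO1C was -0.16 (adjusted p = 0.258).

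RFC4, a small loader subunit, had 24.2, 24.8 and 23.4 CPM in siCtrl, 29.4, 28.7 and 29.5 with siCDO1A and 21.2, 33.9 and 26.9 with siCDO1C. The siCDO1A libraries agreed closely and lay above siCtrl, while the siCDO1C libraries spread to both sides of siCtrl. RFC4 rose by 0.28 ± 0.085 on the log2 scale with siCDO1A (adjusted p = 0.0318, and 0.103 with the block). Of the 6 fits that left out 1 library, 1 kept this call. The difference with siCDO1C was 0.17 ± 0.136 (adjusted p = 0.561). RFC2, RFC3 and RFC5, the other small subunits, had log2 fold changes of 0.01 to 0.19 with siCDO1A and 0.08 to 0.23 with siCDO1C, and did not pass.

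Replication protein A showed 1 change in 3 genes. RPA2, the subunit phosphorylated in the checkpoint response, had 46.9, 46.4 and 45.0 CPM in siCtrl, 57.4, 53.1 and 51.8 with siCDO1A and 52.2, 58.0 and 50.2 with siCDO1C. Both siRNA groups lay above siCtrl. RPA2 rose with siCDO1A (log2 0.23 ± 0.0737, adjusted p = 0.0394, and 0.126 with the block), and the siCDO1C value was 0.21 ± 0.0841 (adjusted p = 0.191). RPA1, which carries most of the DNA contacts, was at 180 to 192 CPM in siCtrl, 186 to 195 with siCDO1A and 168 to 176 with siCDO1C. The siCDO1C libraries lay below siCtrl, but the difference of -0.13 did not pass (adjusted p = 0.313). RPA3, the smallest subunit, had log2 fold changes of 0.01 and 0.09, and 94.9% of its span lies within UMAD1 on the opposite strand, which had -0.33 and -0.17.

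Of the 6 genes of Okazaki fragment maturation, FEN1 rose with both siRNAs, LIG1 with siCDO1A and DNA2 with siCDO1C. FEN1, the nuclease that cuts the flap ahead of the polymerase, had 67.2, 65.7 and 65.4 CPM in siCtrl, 86.8, 84.1 and 80.7 with siCDO1A and 78.1, 87.6 and 81.8 with siCDO1C. There was a clear gap between siCtrl and the siRNA libraries. FEN1 rose 1.27-fold (log2 0.34 ± 0.0643, adjusted p = 0.00102) and 1.24-fold (log2 0.31 ± 0.0764, adjusted p = 0.0298, and 0.0602 with the block). Of the 6 fits that left out 1 library, 6 kept the first call and 2 the second. The FADS2 gene spans 92.6% of FEN1 on the same strand, and its log2 fold changes were 0.03 and -0.07.

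LIG1, the ligase that seals the fragments, had 61.2, 52.8 and 58.8 CPM in siCtrl, 69.6, 72.1 and 64.8 with siCDO1A and 68.5, 69.1 and 67.4 with siCDO1C. Replicate 2 of siCtrl was the lowest library, and all siRNA libraries exceeded siCtrl. LIG1 rose with siCDO1A (log2 0.26 ± 0.0738, adjusted p = 0.0224, and 0.0787 with the block), and the siCDO1C difference was 0.24 ± 0.0811 (adjusted p = 0.114). DNA2, a nuclease and helicase for long flaps, had 26.2, 19.9 and 21.3 CPM in siCtrl, 27.8, 25.5 and 26.0 with siCDO1A and 31.9, 29.1 and 30.2 with siCDO1C. The siCDO1C libraries were above all others, while siCDO1A overlapped with siCtrl replicate 1. DNA2 rose with siCDO1C (log2 0.43 ± 0.111, adjusted p = 0.0376), a call kept in 2 of 6 fits that left out a library. The siCDO1A value was 0.24 ± 0.102 (adjusted p = 0.129). The direct difference between the siRNAs was 0.20 (95% interval -0.01 to 0.41, adjusted p = 0.683).

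The RNase H2 genes, whose products remove RNA from RNA-DNA hybrids, did not pass. RNASEH2A, the catalytic subunit, had 3 to 19 counts per library, with all of its span inside HOOK2 on the opposite strand (log2 fold changes of 0.09 and 0.05), and its log2 fold changes of 0.22 and -0.51 rest on this depth. THSD8 covers 81.3% of RNASEH2A on the same strand, with 0 to 5 counts per library. RNASEH2B had -0.08 and 0.13. RNASEH2C had 0.06 and 0.05, and KAT5 on the opposite strand, with log2 fold changes of 0.24 (adjusted p = 0.04) and 0.29 (adjusted p = 0.0699), covers 80.7% of it.

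Both large subunits of chromatin assembly factor CAF-1 rose with each siRNA. CHAF1A, the largest subunit, which binds PCNA, had 46.2, 43.9 and 44.4 CPM in siCtrl, 53.6, 57.8 and 50.0 with siCDO1A and 61.5, 55.2 and 54.4 with siCDO1C. CHAF1B, its partner, had 66.2, 61.9 and 61.2 CPM in siCtrl, 81.0, 75.2 and 79.4 with siCDO1A and 76.5, 79.0 and 81.0 with siCDO1C. For both genes the siRNA libraries lay above siCtrl without overlap, and the groups with siRNA against CDO1 overlapped with each other. On the log2 scale, CHAF1A rose by 0.26 ± 0.0765 under siCDO1A (adjusted p = 0.024, and 0.0868 with the block) and by 0.34 ± 0.0839 under siCDO1C (adjusted p = 0.0304). CHAF1B rose by 0.32 ± 0.067 (adjusted p = 0.00295) and by 0.31 ± 0.0763 (adjusted p = 0.0291, and 0.06 with the block). Of the 6 fits that left out 1 library, 1 kept the siCDO1A call of CHAF1A and 2 its siCDO1C call. For CHAF1B, 6 kept the siCDO1A call and 1 the siCDO1C call.

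For deoxynucleotide supply, RRM1 and TYMS rose with siCDO1A. RRM1, the large subunit of ribonucleotide reductase, had 144, 135 and 132 CPM in siCtrl, 153, 155 and 167 with siCDO1A and 152, 185 and 154 with siCDO1C. Replicate 2 of siCDO1C was the highest, and no siRNA library overlapped with siCtrl. RRM1 rose with siCDO1A (log2 0.21 ± 0.0595, adjusted p = 0.0188, and 0.0937 with the block), and the siCDO1C value was 0.25 ± 0.0842 (adjusted p = 0.11). TYMS, which makes dTMP, had 28.6, 28.3 and 29.8 CPM in siCtrl, 39.7, 32.3 and 33.5 with siCDO1A and 37.3, 36.2 and 34.9 with siCDO1C. All siRNA libraries were higher than siCtrl, with siCDO1A replicate 1 the highest of all. TYMS rose with siCDO1A (log2 0.28 ± 0.0905, adjusted p = 0.0419, and 0.103 with the block). With siCDO1C its log2 fold change was 0.32 ± 0.0868, just outside the threshold (adjusted p = 0.0508). ENOSF1 on the opposite strand overlaps 20.4% of TYMS, with log2 fold changes of 0.03 and -0.01.

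RRM2, the small reductase subunit that cycles with S phase, had 91.8, 84.5 and 87.0 CPM in siCtrl, 88.5, 84.9 and 95.6 with siCDO1A and 96.5, 116 and 101 with siCDO1C. Its siCDO1A libraries overlapped with siCtrl and its siCDO1C libraries lay above both other groups, with log2 fold changes of 0.03 (adjusted p = 0.797) and 0.24 (adjusted p = 0.113). AC007240.1 spans 81.0% of RRM2 on the same strand, with 0 to 3 counts per library. TK1, which salvages thymidine and was the third most abundant of the 43 genes per length (102 CPM per kilobase), had log2 fold changes of 0.14 and 0.06 and did not pass.

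**Figure D4:**
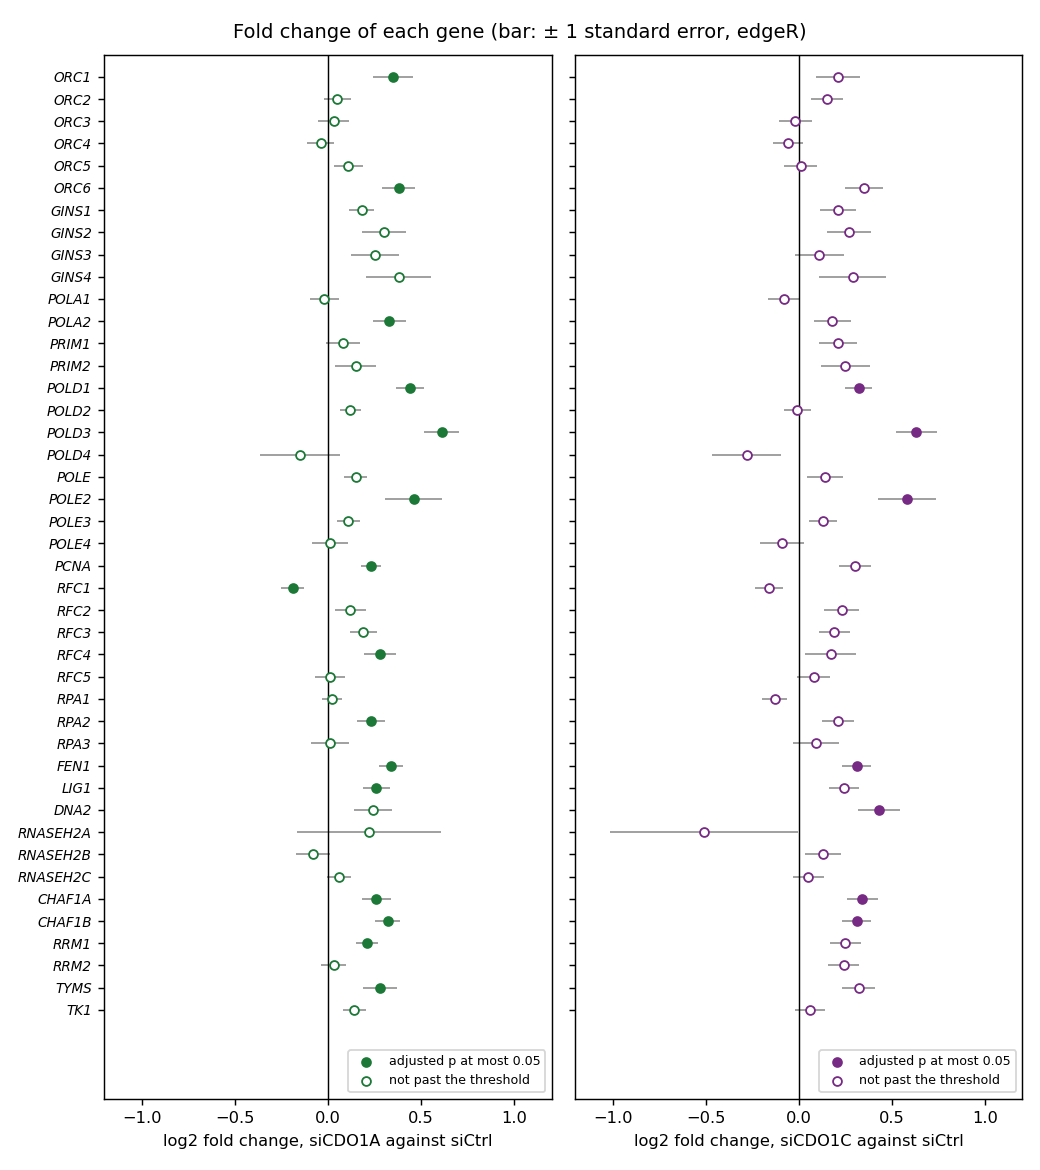
Log2 fold change of each gene against siCtrl with siCDO1A (left) and siCDO1C (right), with bars of ± 1 standard error and filled points for an adjusted p of at most 0.05. POLD3 has the highest value in both panels, and RNASEH2A, with 3 to 19 counts per library, the widest bar.

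The siRNAs were compared directly to see whether any gene responded to 1 of them only. None of the 43 genes differed between siCDO1C and siCDO1A (edgeR, 0.444% of all genes did), and DESeq2 called none either. At an unadjusted p under 0.05 there was 1, RRM2, with a log2 difference of 0.21 (95% interval 0.02 to 0.40, adjusted p = 0.577). For 41 of the 43 genes the 95% interval of the difference lay within -0.5 to 0.5 on the log2 scale, the exceptions being POLD4 (-0.68 to 0.42) and RNASEH2A (-1.70 to 0.25). This bound was wider than most fold changes against siCtrl, whose medians were 0.18 and 0.19. A gene that responded to 1 siRNA only could lie within it, so the count does not show that the siRNAs agree. As no gene passed the direct test, a call with siCDO1A and none with siCDO1C is not shown to be a difference between the siRNAs.

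**Figure D5:**
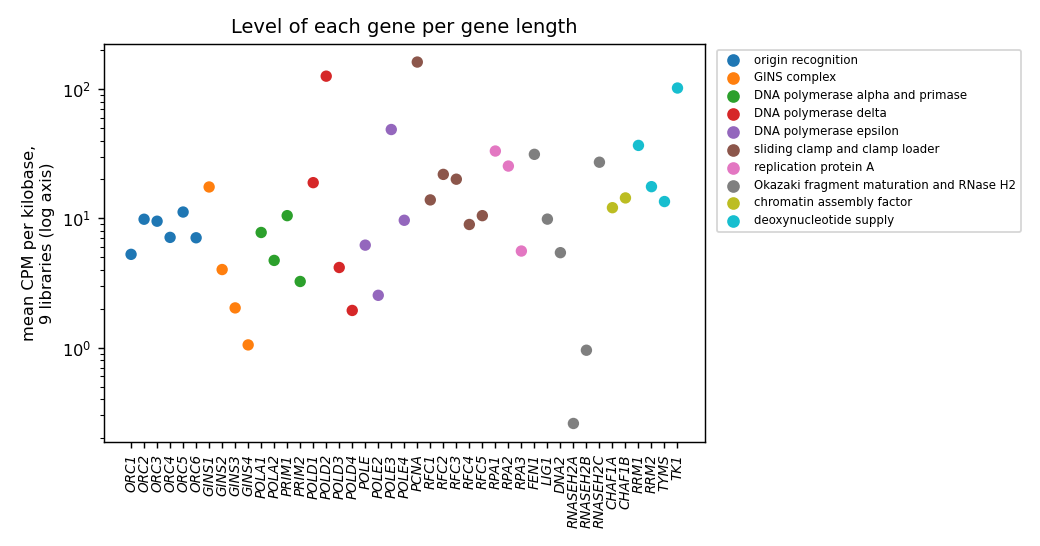
Mean CPM per kilobase of gene length over the 9 libraries (log axis) for each of the 43 genes, coloured by role. PCNA (162), POLD2 (126) and TK1 (102) are the highest and RNASEH2A (0.259) the lowest.

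Genes that act beside these 43 were counted in lists written from general knowledge. In origin loading and the helicase, 12 of 17 genes rose with siCDO1A and 7 with siCDO1C (10 and 5 with the block), and none fell. Those called with both were CDT1 and MCM10, DONSON, CDC45 and the helicase subunits MCM4 and MCM5. With the block, CDC45 no longer passed with siCDO1C (adjusted p = 0.0716). CDT1, which loads the helicase, had log2 fold changes of 0.46 (adjusted p = 0.00253) and 0.44 (adjusted p = 0.0396). MCM4 had 0.38 (adjusted p = 3e-05) and 0.40 (adjusted p = 0.00299). DONSON, needed to assemble the active helicase, had 0.45 and 0.46 (adjusted p = 0.00195 and 0.0134). For this list the median log2 fold change was 0.28 under siCDO1A and 0.26 under siCDO1C.

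In fork support and chromatin, 4 of 16 genes rose with siCDO1A (1 with the block), and with siCDO1C 1 rose and TOP2A, topoisomerase II alpha, fell by 0.33 on the log2 scale (adjusted p = 0.0204). DNMT1, the maintenance DNA methyltransferase that travels with the fork, rose with both, by 0.83 (adjusted p = 1.1e-08) and 0.72 (adjusted p = 0.00019), more than any of the 43 genes. It had 81.7, 79.5 and 78.1 CPM in siCtrl, 148, 134 and 143 with siCDO1A and 141, 117 and 139 with siCDO1C. In further nucleotide supply, 4 of 13 genes rose with siCDO1A (1 with the block) and none passed with siCDO1C, where 6 had an unadjusted p under 0.05. DESeq2 called 1 of these genes with each siRNA. Its median was 0.15 on the log2 scale under siCDO1A and 0.16 under siCDO1C.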

How the data were processed

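Poly(A) RNA of VCaP cells was made into directional libraries and sequenced from both ends on an Illumina instrument, per the labels and the study's methods. Reads were cleaned of adapters and poor bases and assigned to genes by the authors with featureCounts, and the submitters' processing notes name CASAVA, HISAT2 2.0.5 and hg38. How the counting treated strand and reads with several matches is not given in the sources used here, so genes that overlap others, or that have processed copies elsewhere, are less certain. The values were deposited as raw counts per gene, and 3 columns that match no sample were not used.

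Genes were kept by filterByExpr (minimum count 10), which left 15555 of 58735 genes and all 43 members. Counts were normalized by TMM and tested by the quasi-likelihood test of edgeR 4.0.16 (R 4.3.3) on the 6 libraries of each comparison, with Benjamini-Hochberg adjustment over all genes and a threshold of 0.05. CPM are TMM-normalized. Alternatives were DESeq2 1.42.0, 1 fit of all 9 libraries, RLE size factors, 2 other filters on low counts, legacy=FALSE, a gene length correction, the replicate block and leaving out each library. A correction for GC content and length was added after seeing the data. The code was tested on simulated data with known changes.

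The labels give a batch number equal to the replicate number, and what was shared within a batch is not given in the sources used here. The pairing rests on this label alone, and most of the correlations below are negative or near 0. Deviations from the group mean, correlated over 11337 genes between siCtrl and siCDO1A, siCtrl and siCDO1C, and siCDO1A and siCDO1C, gave r of -0.202, 0.0527 and -0.133 for number 1, -0.0901, -0.00729 and 0.127 for number 2, and -0.376, -0.277 and 0.378 for number 3. P-values measure the spread between these libraries, which may be technical.

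The members and lists were chosen with earlier results of these data known. All members are accounted for, those called are given in every library, and from the other lists the genes called with both siRNAs are named, up to 6 per list. TOP2A, CDK2, MKI67, E2F3, CCND1 and CCNB1 were named after their values were seen. Some marker genes checked in these libraries are not reported here.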

Additional observations from a re-analysis of the deposited data

Results flagged for a closer look

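CDK2, the kinase that drives entry into S phase, is not one of the 43 genes but belongs to the list of cell cycle regulators, and it was picked out because its levels differed between the siRNAs in the direct test. It had 41.2, 40.2 and 39.0 CPM in siCtrl, 30.0, 35.4 and 30.9 with siCDO1A and 51.2, 53.8 and 44.4 with siCDO1C, and the 3 groups did not overlap. CDK2 fell by 0.32 on the log2 scale with siCDO1A (SE 0.0843, edgeR adjusted p = 0.0132), had a log2 fold change of 0.30 ± 0.0903 with siCDO1C (adjusted p = 0.0676), and stood 0.63 ± 0.104 higher with siCDO1C than with siCDO1A (adjusted p = 0.00707, and from 0.00169 to 0.107 when 1 library was left out). It was the only gene called in this test among the 24 of its list.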

How the results depend on the processing

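The 23 calls of members (16 with siCDO1A, 7 with siCDO1C) kept their direction in all 368 alternative values. In each call all siRNA libraries lay on 1 side of all siCtrl libraries. A reversal was therefore hardly possible, and this count does not measure how firm the calls are. Of the 23 calls, 10 still passed with the replicate block and 6 without siCtrl replicate 2. Of the 6 fits that left out 1 library, 6 kept the siCDO1A call of PCNA, 5 that of ORC6 and 4 that of RRM1. The siCDO1A calls of POLA2 and LIG1 were kept in 3, those of ORC1, RFC1 and TYMS in 2, and those of RFC4 and RPA2 in 1. With siCDO1A, 7 members were called in 1 fit of all 9 libraries and 6 with the replicate block. With siCDO1C, 13 were called after removal of GC and length trends, 12 with the block added to these trends, 12 after removal of the length trend alone, and 4 with the replicate block. Calls with both siRNAs, 6 as reported, became 12 and 11 with GC and length trends removed, without and with the block, and 2 with the replicate block. When 1 library was left out, the count went from 5 (without siCtrl replicate 2) to 17 with siCDO1A, where it was 8 without siCDO1A replicate 1 or 2 and 10 without siCtrl replicate 1. With siCDO1C it went from 1 (without siCtrl replicate 2 or 3) to 10 (without siCDO1C replicate 2), with 2 without siCtrl replicate 1 or siCDO1C replicate 1 and 4 without siCDO1C replicate 3. For both siRNAs it went from 1 (without siCtrl replicate 2 or 3) to 8 (without siCDO1C replicate 2), with 2 without siCtrl replicate 1 or siCDO1C replicate 1. Fewer samples entered these fits, and the cause of the other shifts was not tested. Apart from the fit as reported and the replicate block, the share of all genes called in each setting was not counted. A higher or lower count of members in those settings therefore has no background to be read against. Between the siRNAs, 0 members were called in every setting run. RNASEH2A, with 3 to 19 counts, allows no statement on a change.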

Other observations

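Cell cycle regulators and mitotic genes, a list of 24, did not move in 1 direction. With siCDO1A 4 rose and 4 fell, with siCDO1C 3 rose and 1 fell, and the median log2 fold change was -0.04 and -0.03. E2F1 and E2F2, activators of S phase genes, rose with both siRNAs, by 0.29 and 0.33 for E2F1 (edgeR adjusted p = 0.00455 and 0.0326) and by 0.33 and 0.44 for E2F2 (adjusted p = 0.0132 and 0.00964). E2F1 had 85.6, 86.9 and 99.0 CPM in siCtrl, 112, 109 and 112 with siCDO1A and 117, 122 and 105 with siCDO1C, with no overlap. KIF11, the mitotic spindle motor, rose by 0.29 and 0.36 (adjusted p = 0.00566 and 0.00932). AURKA, a mitotic kinase, fell by 0.20 and by 0.33 (adjusted p = 0.024 and 0.0137). With the replicate block, 2 rose and 1 fell with siCDO1A, where E2F2 and AURKA no longer passed (adjusted p = 0.0522 and 0.118), nor did E2F3, CCND1 and CCNB1 (adjusted p = 0.146, 0.113 and 0.106). With siCDO1C, 3 rose and 1 fell as before.

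MKI67, the gene of the proliferation marker Ki-67, had 400, 369 and 346 CPM in siCtrl, 304, 336 and 414 with siCDO1A and 403, 230 and 422 with siCDO1C. The library with 230 CPM is siCDO1C replicate 2, the one with the highest value for 22 of the 43 replication genes. The log2 fold changes of MKI67 were -0.08 and -0.09 and did not pass (adjusted p = 0.635 and 0.896).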
